A study of Mus musculus with 168 samples.

Results

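Hypoglossal motor neurons of control mice were followed over the early postnatal period, at days 2, 5 and 10. They were chosen by label alone, as the control samples of the hypoglossal population, and made up 12 of the 160 samples of mouse and population in the series. Each age was represented by 4 mice, with 1 library each, and no mouse was sampled at more than 1 age. The controls were littermates from the delta7 line, a mouse model of spinal muscular atrophy (SMA). They carried both copies of mouse Smn1 (Smn+/+) together with the human transgenes SMN2+/+ and SMNΔ7+/+, so every value below was measured on that transgenic background. The SMA mice used for comparison, 15 samples of the same nucleus at the same ages, carried the same transgenes on Smn-/-. About 150 cells per tube were cut by laser from stained frozen sections, and their polyA RNA was amplified by Smart-seq2, which copies transcripts over their whole length. Expression was given as RPKM, which scales reads by the length of the gene and the depth of the library.

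The hypoglossal nucleus lies in the medulla, and its motor neurons move the tongue, which a newborn mouse needs for suckling and breathing. Over the days after birth such neurons lose their gap junctions, shorten the kinetics of their synaptic currents and change their set of glycine receptors and ion channels. Axon growth proteins are replaced by those of a mature axon and terminal over the same period. Pooled cells of this kind hold motor neurons together with fragments of the cells that touch them. A lower value can mean fewer cells of a type or less RNA per cell, and these cannot be told apart here.

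The libraries held 3.05 to 9.41 M reads (M as in Mb) as recovered from the table (median 6.69), and 14699 to 17574 genes were above 0. Correlations of log2 values between mice of an age ran from 0.866 to 0.917 over 18 pairs. Chat, the enzyme that makes acetylcholine, was found in every mouse (7.38 to 62.2 RPKM), as were the motor neuron genes Prph (890 to 1369), Isl1 (27.8 to 131) and Slc5a7 (54.6 to 211). Tbx20, which marks cranial motor neurons in the embryo, was at or near 0 (at most 1.08). Smn1 ran from 13.3 to 50.4 RPKM in the 12 mice, and the row for human SMN2 from 77.4 to 213.2. The day 5 sample of mouse 75 stood apart on the second principal component, at a score of 94.9 against −20.02 to 3.66 in the others. The day 2 samples of mice 240 and 244 held the hypothalamic peptide Hcrt (180 and 122.6 RPKM), which was at 1.15 to 12.02 in the others. Library numbers in the labels were under 100 for all day 5 mice and above 200 for all day 10 mice, with 2 day 2 mice on each side. What the numbers stand for is not said, and they cannot be told apart from age between days 5 and 10. The labels give no sex. The Y-linked Ddx3y was at 13.9 to 18.7 RPKM in mice 240, 244, 75, 247 and 252 and at most 0.0358 in the others, while Xist of the inactive X was at most 0.379 in those 5 and at 2.09 to 26.7 in the others. Mice 240 and 244 thus differed from the other day 2 pair in library number, hypothalamic peptides and these sex-linked genes at once, and these cannot be told apart.

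Between day 2 and day 10, 477 of 14121 genes tested passed an adjusted p of 0.05 (limma, Benjamini-Hochberg, two-sided), which is 3.38% of them. Rises made up 1.57% of all genes tested and falls 1.81%, while the median change over all genes was −0.03 on the log2 scale. In 455 of the 477 no mouse of day 10 overlapped a mouse of day 2, against 10.1% of all genes tested with no overlap. The change was at least 1 on the log2(RPKM + 1) scale in 396. That scale understates changes of genes with low values. Of the 477, 14 entered the test only with the help of the day 10 mice (among them Kcng4, Kcnj9, Amhr2 and Lum) and 10 with that of the day 2 mice (among them Trbv29 and Ccna2), so those genes had to differ. Day 5 lay close to day 2. No gene passed between day 2 and day 5 by limma (0% of genes, lowest adjusted p 0.230, and 933 genes with an unadjusted p under 0.05). Between day 5 and day 10, 93 genes were higher and 98 lower (1.35% together). Both comparisons with day 10 share its mice. The count between days 2 and 10 was 261 without mouse 254, 307 without mouse 26, and 150 when the day 2 mice 240 and 244 were left out. Without the other day 2 pair it was 146. The count between days 5 and 10 was less stable, at 28 without mouse 29, 46 without mouse 34, 52 without mouse 71 and 53 without mouse 254, and 91 without mouse 252. Without mice 244, 247 or 253 it came to 0.875%, 0.767% and 0.916% of the genes tested, in place of 1.35%.

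**Figure D1:**
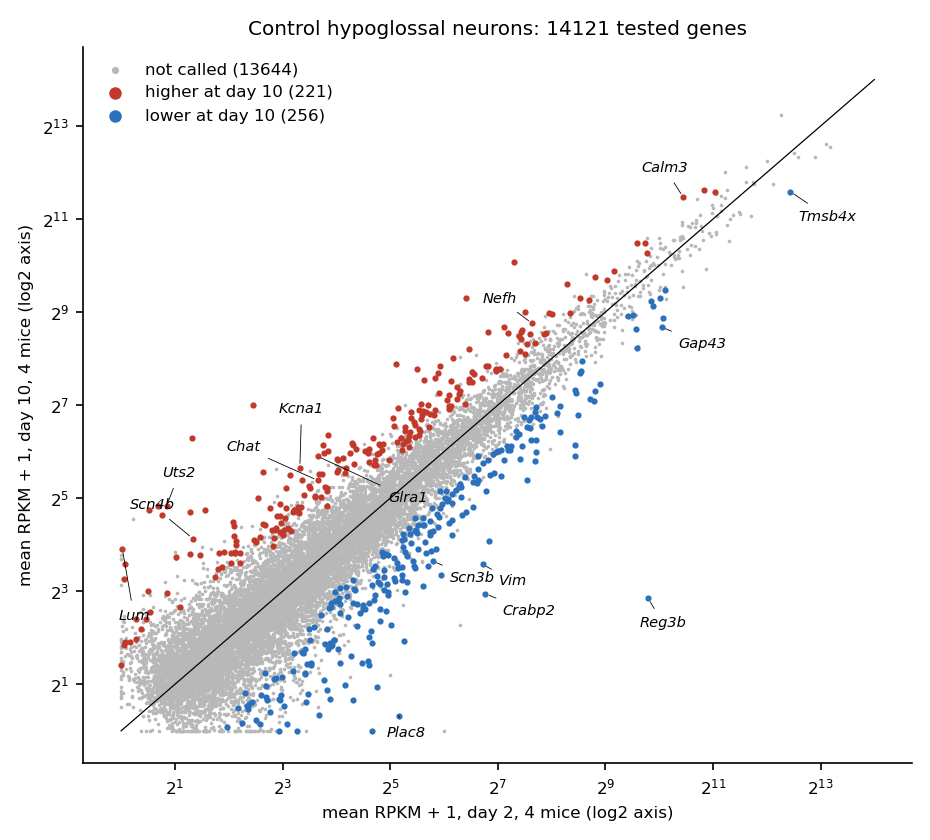
Mean level of each tested gene in control hypoglossal neurons at day 2 (x axis) and day 10 (y axis), both as log2(RPKM + 1), with genes past an adjusted p of 0.05 coloured by direction. The 477 coloured genes lie off the diagonal on either side, and Reg3b is the gene farthest below it.

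The position of day 5 along the way from day 2 to day 10 was read for each of the 477 genes as a description, since they were chosen on those end points. The median gene had gone 27.9% of the way by day 5, with quartiles of 13.5% and 42.9%. It was 33.5% for genes that rose and 26.0% for genes that fell. Day 5 lay between the other ages for 418 genes, on the far side of day 2 for 56 and beyond day 10 for 3. In 390 genes less than 50% of the way had been covered by day 5, which is past the first 3 of the 8 days. Chat (64%) and the calcium sensor Vsnl1 (72%) were early in that sense, and the transcription factor Isl1 had not moved from its day 2 level.

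**Figure D2:**
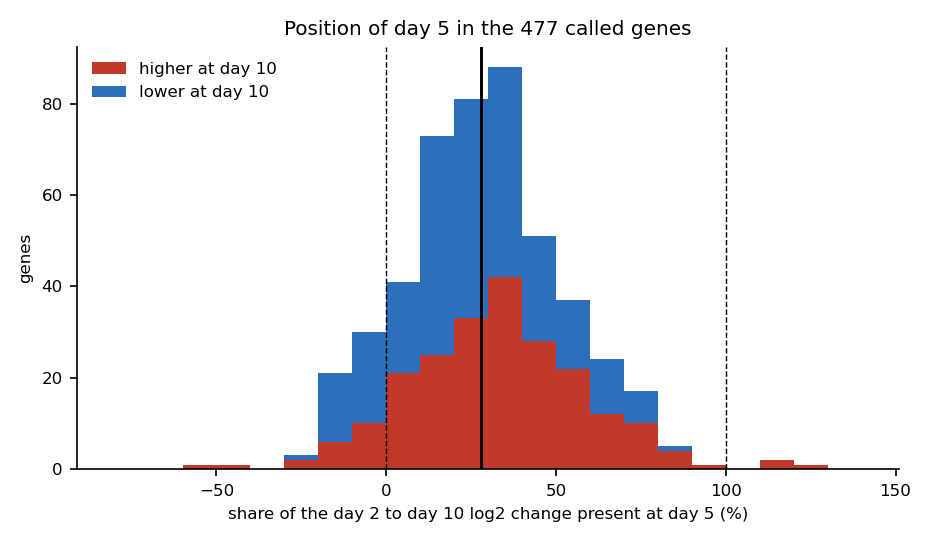
Number of genes (y axis) by the percentage of the day 2 to day 10 change reached at day 5 (x axis), for the 477 genes past the threshold. The solid line marks the median of 27.9%, and the dashed lines mark 0 (the day 2 level) and 100 (the day 10 level).

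The steepest fall was that of Reg3b (chr6:78370657-78373466, GRCm38), a secreted lectin of the regenerating islet-derived family. It stood at 852, 517, 1150 and 1025 RPKM in the day 2 mice, at 187.99, 475, 947 and 302 at day 5, and at 8.48, 0, 0 and 16.4 at day 10. Every day 5 mouse thus lay above every day 10 mouse, and the change from day 2 to day 10 was −7.89 ± 0.79 (log2, SE, adjusted p = 0.000215). Its neighbour Reg3a (chr6:78380709-78383827), a close paralog, fell with it from 12.1 to 26.6 RPKM at day 2 to at most 2.35 at day 10, and how reads shared by the paralogs were counted is not given in the sources used here. Plac8 (chr5:100553725-100572245) was at 43.7, 32.5, 46.0 and 16.7 RPKM at day 2 and at 10.0 to 36.4 at day 5. At day 10 it was listed at 0 in 3 mice and at 1.01 in mouse 253 (change −4.81 ± 0.43, adjusted p = 0.000200). Vim, the intermediate filament vimentin of immature neurons and glia, went from 104, 127.7, 120 and 66.6 RPKM through 51.4 to 63.7 to 6.08, 6.53, 9.86 and 21.3 (−3.26 ± 0.33, adjusted p = 0.000215). The retinoic acid binding protein Crabp2 (−4.12 ± 0.70), the activin antagonist Fst (follistatin, −3.84 ± 0.57), Crip1 (−3.63), the microfibril protein Mfap2 (−3.52), the peptide precursor Trh (−3.25) and the cell cycle inhibitor Cdkn1c (−3.21) also fell. The chemokine Ccl7 fell too (−3.26), and the T cell receptor segment Trbv29 was listed at 0 in all 4 day 10 mice after 5.82 to 52.6 RPKM at day 2. The calls of Ccl7, Trh and Trbv29 were each lost without some mice (adjusted p at most 0.0655 without mouse 244, 0.0604 without mouse 240 and 0.0897 without mouse 244). Trh was highest in the day 2 mice that held Hcrt, 240 and 244 (97.1 and 73.8 RPKM, with 36.4 and 34.9 in mice 26 and 28).

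Among the steepest rises, Hhatl (chr9:121784016-121792507), an acyltransferase-like membrane protein, was at 0.102, 0, 0.468 and 1.13 RPKM at day 2 and at 0.143, 1.18, 4.88 and 6.05 at day 5. It reached 30.4, 24.3, 15.2 and 34.3 at day 10 (4.25 ± 0.54, adjusted p = 0.000997). Uts2, the peptide urotensin 2, was at most 2.47 RPKM at day 2 and at 38.0, 19.4, 27.4 and 24.7 at day 10 (4.12 ± 0.78, adjusted p = 0.00906), with day 5 mice spread from 0 to 23.5. Amhr2, the receptor for anti-Müllerian hormone, was listed at 0 in 3 day 2 mice and stood at 7.15 to 15.5 at day 10 (3.45 ± 0.59). The other steep rises included the myelin gene Mobp (3.49 ± 0.78), the lipid carrier Apod (3.90 ± 0.93), the matrix proteoglycan Lum (lumican, 3.82 ± 0.41), Plxdc1 (2.96), a second listed form of Evi5l (3.65) and the sodium channel subunit Scn4b. The ribosomal RNA rows n-R5-8s1 and Gm24601 were also among them. Apod lost its call without some mice (adjusted p up to 0.0991, without mouse 254), as did Mobp (0.0701, without mouse 26) and Plxdc1 (0.0560, without mouse 254). Myelin, meningeal and ribosomal RNA values by mouse are given with the other cell types below.

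Of 27 tested motor neuron identity genes, 1 rose and 2 fell (11.1%, against 3.38% of all genes). That was 3 and 2 without mouse 75, and 0 when mice 240 and 244 were left out. Chat (chr14:32408203-32465989) was at 7.38, 9.58, 18.6 and 10.9 RPKM at day 2, at 35.5, 20.8, 27.5 and 18.7 at day 5, and at 30.7, 62.2, 40.7 and 29.4 at day 10. Its values did not overlap between days 2 and 10 (1.73 ± 0.33, adjusted p = 0.00893). Isl1 (chr13:116298281-116309689), a homeodomain factor that sets motor neuron fate, stood at 90.4, 120.5, 86.3 and 98.1 RPKM at day 2 and 84.05 to 131 at day 5. It then stood at 27.8, 56.5, 42.1 and 37.8 at day 10 (−1.28 ± 0.23, adjusted p = 0.00661). Lifr, a receptor for neurotrophic cytokines, fell by 0.76 on the log2 scale, and that call was lost in 11 of the 12 fits that each left out 1 mouse (adjusted p up to 0.113, without mouse 254). The choline transporter Slc5a7 averaged 83.5 RPKM at day 2 and 137 at day 10 without passing (0.66 ± 0.33, adjusted p = 0.349). Ache, which breaks down acetylcholine, missed more narrowly (0.71 ± 0.20, adjusted p = 0.0724). None of the 22 tested genes that separate alpha from gamma or fast from slow motor neurons passed in either direction by limma, and at an unadjusted p under 0.05 there were 6 higher and 3 lower. Chodl, a fast motor neuron marker, averaged 216.6 RPKM at day 2 and 221.7 at day 10, and Mmp9 averaged 4.64 and 14.9 with mice at day 10 spread from 0.936 to 34.0.

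Inhibitory transmission in motor neurons runs through glycine receptors, pentamers of an alpha subunit with the beta subunit Glrb, clustered by gephyrin (Gphn). Alpha subunits are known to switch after birth from the Glra2 form to the faster Glra1 form. Glra1 (chr11:55514238-55608198) was at 8.91, 6.89, 16.1 and 14.3 RPKM at day 2, at 21.2, 9.16, 15.3 and 24.5 at day 5, and at 46.9, 65.2, 41.8 and 81.3 at day 10. Each day 10 mouse lay above all others, and the rise was 2.27 ± 0.35 (adjusted p = 0.00314). Glra2 was the higher of the pair at day 2, with 62.4, 36.2, 55.0 and 90.8 RPKM, stayed at 57.3 to 64.7 at day 5 and was at 33.3, 27.4, 23.6 and 28.9 at day 10. In every day 2 mouse Glra2 stood above Glra1 in RPKM, and in every day 10 mouse below it. Its fall of −1.02 ± 0.25 passed (adjusted p = 0.0354) but was lost in 7 of the 12 fits with 1 mouse left out (adjusted p up to 0.0867, without mouse 240). Glra3 fell as well, from 6.29, 8.75, 6.03 and 6.91 RPKM through 2.10 to 4.18 to 1.72, 1.503, 1.10 and 0.623 (−1.85 ± 0.35, adjusted p = 0.00887). Of the 27 genes of glycine and GABA signalling tested, no others passed (11.1% in all, against 3.38% of all genes tested). Glrb averaged 89.7, 141.4 and 142 RPKM at the successive ages (0.63 ± 0.21, adjusted p = 0.128). Gphn averaged 35.1 and 39.5 RPKM at days 2 and 10 (0.11 ± 0.25, adjusted p = 0.877). The chloride exporter Slc12a5 (KCC2), whose gain marks the switch of glycine from exciting to inhibiting, averaged 61.8, 56.9 and 59.1 RPKM (−0.01 ± 0.25, adjusted p = 0.990). The importer Slc12a2 averaged 7.56 and 10.3 at days 2 and 10 (0.43 ± 0.31, adjusted p = 0.550).

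The stretches of 120 bases just before the start sites of the receptor subunits that fell and of a pair of potassium channel genes that rose are shown so that readers can see what lies in front of genes that moved in opposite directions. They are RefSeq sequences of GRCm38.p6, written 5′ to 3′ on the strand of the gene. Capitals mark matches to TATAAA (the TATA element), GGGCGG (an Sp1-type GC box) or CACCC (the core bound by Krüppel-like factors), on either strand.
Glra2, chrX:165327394-165327513, minus strand: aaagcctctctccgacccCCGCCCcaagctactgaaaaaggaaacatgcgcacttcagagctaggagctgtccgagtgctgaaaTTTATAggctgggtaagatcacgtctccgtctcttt
Glra3, chr8:55940298-55940417, plus strand: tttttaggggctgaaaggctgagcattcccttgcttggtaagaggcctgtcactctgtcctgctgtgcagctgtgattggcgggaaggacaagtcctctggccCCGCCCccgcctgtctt
Kcng4, chr8:119635681-119635800, minus strand: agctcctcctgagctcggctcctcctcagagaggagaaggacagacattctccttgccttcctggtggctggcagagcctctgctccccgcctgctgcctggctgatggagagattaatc
Kcnh2, chr5:24329592-24329711, minus strand: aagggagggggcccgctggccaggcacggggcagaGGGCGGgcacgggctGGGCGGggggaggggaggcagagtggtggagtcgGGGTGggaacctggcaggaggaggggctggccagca
The Glra2 window holds a TATA element in reverse and a GC box, Glra3 a GC box, Kcnh2 a pair of GC boxes and a CACCC core, and Kcng4 none of the 3. Over the 250 bases before the start site, GGGCGG was found in 63.9% of the 158 matched genes that rose, 70.5% of those that fell and 64.2% of the 9415 matched genes tested. CACCC was found in 67.7%, 63.0% and 62.3% of them, and TATAAA in 7.59%, 12.1% and 7.84%. Among all 27025 genes with a promoter entry the shares were 35.4%, 54.5% and 14.3%. These are matches of letters only.

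Of 41 genes tested for glutamate receptors and their partners, 3 fell and 1 rose (9.76%, against 3.38% of all genes tested). In all, 1 gene passed without mouse 240, 244 or 26. The falls were in Cacng4 (−2.29 ± 0.52) and Cacng5 (−1.50 ± 0.22, adjusted p = 0.00215), auxiliary subunits of AMPA receptors, and in the metabotropic receptor Grm3 (−1.14 ± 0.29). Cacng5 was at 48.2, 58.2, 62.2 and 49.5 RPKM at day 2, at 26.9 to 45.7 at day 5 and at 17.7, 16.4, 19.9 and 20.1 at day 10, with no overlap between successive ages. Adarb1, the enzyme that edits AMPA receptor RNA, rose from 5.44 to 8.81 RPKM at day 2 to 12.2 to 20.0 at day 10 (1.21 ± 0.29, adjusted p = 0.0345). The pore-forming subunits did not pass. Gria2 averaged 75.2 and 51.4 RPKM at days 2 and 10 (−0.56 ± 0.20, adjusted p = 0.157) and Grin1 129 and 223.9 (0.73 ± 0.28, adjusted p = 0.190). The calls of Cacng4, Grm3 and Adarb1 were lost without some mice (adjusted p up to 0.0602 and 0.114 without mouse 26, and 0.0902 without mouse 240).

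Voltage-gated sodium channels carry the action potential, and their beta subunits set how fast they open and recover. The beta subunits moved in opposite directions. Scn4b (chr9:45138395-45154152), the subunit tied to resurgent current, was at 1.21, 1.84, 0.557 and 2.46 RPKM at day 2 and at 3.72, 4.41, 3.57 and 4.41 at day 5. At day 10 it was at 11.8, 16.9, 21.4 and 16.1, so that the 3 ages did not overlap (2.84 ± 0.35, adjusted p = 0.000778). Scn2b was at 170.6, 141.4, 209.1 and 200.9 RPKM at day 2, at 189.4 to 366 at day 5 and at 796, 306, 336 and 601 at day 10 (1.39 ± 0.29, adjusted p = 0.0163). Scn3b fell from 52.3, 49.0, 52.5 and 64.4 RPKM to 3.10, 12.5, 17.6 and 12.9 (−2.34 ± 0.38, adjusted p = 0.00412), with 2 of the day 5 mice (35.04 to 62.0) in the range of day 2 and 2 below it. Among alpha subunits, Scn8a of the mature axon initial segment rose (0.84 ± 0.19), Scn3a of the embryonic brain fell (−1.08 ± 0.26) and Scn9a fell (−1.20 ± 0.29) with 1 day 10 mouse inside the day 2 range. Scn1a averaged 15.8 and 28.9 RPKM without passing (0.86 ± 0.24, adjusted p = 0.0631). In all, 4 of 26 tested sodium and calcium channel genes rose and 3 fell (26.9%, against 3.38% of all genes tested). These counts became 2 and 1 without mouse 254. With 1 mouse left out, Scn8a, Scn3a, Scn9a and Scn2b each lost the call in some fits (adjusted p up to 0.0808 without mouse 244, 0.0936 without mouse 254, 0.0941 without mouse 240 and 0.0554 without mouse 254).

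Potassium channels shorten the action potential and set firing rate, and of 53 tested genes of these and of HCN channels 8 rose, against 1.57% of all genes tested, and none fell by limma (2 lower at an unadjusted p under 0.05). Rises numbered 5 without mouse 247, 252 or 254, and 5 when either pair of day 2 mice was left out. Kcna1 (chr6:126640397-126646384), the Kv1.1 channel of juxtaparanodes, was at 5.21, 8.34, 9.56 and 12.9 RPKM at day 2, at 13.6, 19.1, 17.7 and 19.3 at day 5, and at 50.7, 56.5, 45.7 and 45.1 at day 10. Its ages did not overlap, and it rose by 2.39 ± 0.27 (adjusted p = 0.000351). Kcnab2 and Kcnab3, cytoplasmic beta subunits of Kv1 channels, rose by 1.88 ± 0.26 and 2.43 ± 0.39. Kcnab2 was at 10.5, 15.4, 22.5 and 11.97 RPKM at day 2, at 14.6 to 20.1 at day 5 and at 45.1, 58.97, 64.1 and 57.7 at day 10 (adjusted p = 0.00156), with the younger ages overlapping. Kcng4 (chr8:119623854-119635680) codes for a silent subunit that modifies other Kv channels. It was listed at 0 in 3 day 2 mice (0.177 in the other) and in all 4 day 5 mice, and stood at 14.95, 8.89, 6.11 and 4.37 RPKM at day 10 (3.08 ± 0.39, adjusted p = 0.000954). It entered the test through the day 10 mice alone, so a gene with its values had to differ. Kcnj9 (2.05), the leak channel Kcnk1 (1.45) and Kcnh2 (1.21) rose too, and Kcnh2 kept its call in 2 of 12 fits with 1 mouse left out (adjusted p up to 0.112, without mouse 244). Kcnj9 lost its call in 5 of 12 (up to 0.0670, without mouse 240). The leak channel Kcnk3 averaged 32.3 and 39.2 RPKM at days 2 and 10 and did not pass (adjusted p = 0.621).

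**Figure D3:**
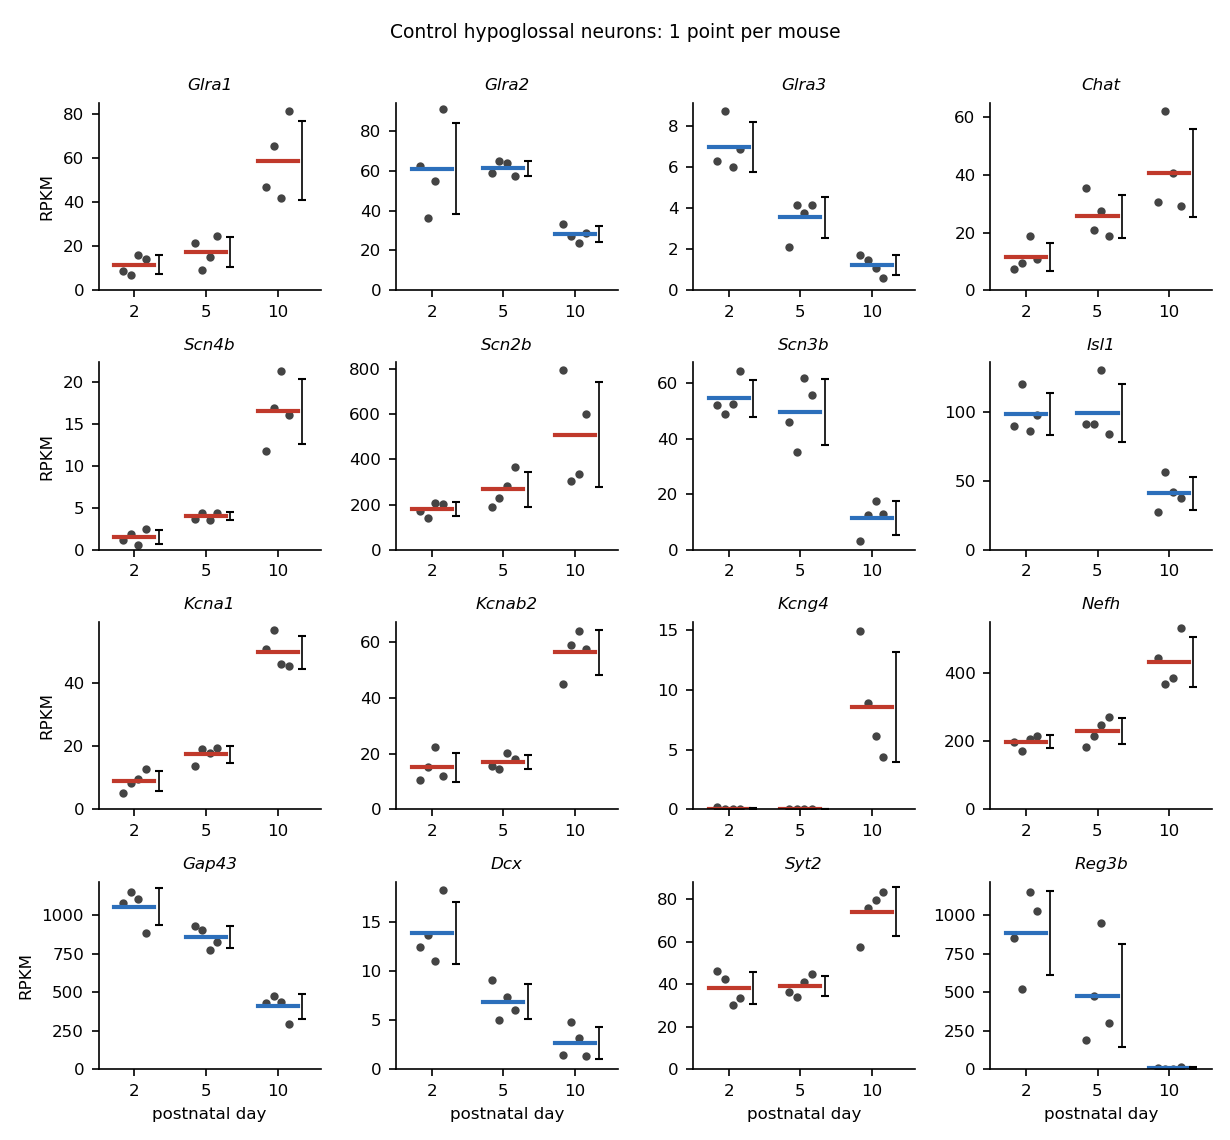
RPKM (y axis) by age in days (x axis) for 16 genes, 1 point per control mouse, with a coloured bar at the mean of 4 mice and a black whisker of 1 SD. The day 10 mice stand above all day 2 mice for Glra1, Scn4b, Scn2b, Kcna1, Kcnab2 and Nefh, and below all of them for Glra3, Scn3b, Isl1, Gap43, Dcx and Reg3b.

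Synaptotagmins, the calcium sensors of vesicle fusion, moved in both directions. Of 46 genes tested for transmitter release and vesicles, 8 rose and 3 fell (23.9%, against 3.38% of all genes tested). These counts became 6 and 1 without mouse 26 or mouse 254. Syt2, the fast sensor of neuromuscular and brainstem terminals, was at 46.2, 42.4, 30.0 and 33.5 RPKM at day 2, at 34.0 to 44.9 at day 5 and at 57.4, 75.9, 79.7 and 83.3 at day 10 (0.95 ± 0.21, adjusted p = 0.0211). Syt3 (1.11 ± 0.19) and Syt11 (0.65 ± 0.16) rose too. Syt4 fell from 1164, 983, 1006 and 1159 RPKM to 642, 389, 334 and 497 (−1.25 ± 0.18, adjusted p = 0.00214), and Syt1 (−1.10 ± 0.27) and Syt5 (−1.23 ± 0.30) fell. The vesicle fusion protein Vamp1 was at 137 to 211 RPKM at day 2, 203.3 to 244 at day 5 and 344 to 370 at day 10 (1.10 ± 0.15, adjusted p = 0.00156). Rph3a, Dnm1 and Cplx1 rose by 1.32, 1.01 and 0.67, and they code for a Rab3 effector, the dynamin of synaptic endocytosis and complexin 1. Syt1, Syt2, Syt5 and Syt11 lost their calls without some mice, at adjusted p up to 0.0859 (without mouse 26), 0.0650 (254), 0.0977 (244) and 0.0916 (244).

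The neurofilaments widen motor axons. Nefh, the heavy chain, stood at 198.3, 172.4, 207.5 and 215.1 RPKM at day 2, at 184.5 to 270 at day 5 and at 443, 368, 386 and 531 at day 10 (1.11 ± 0.17, adjusted p = 0.00283). Nefl (0.54 ± 0.14) and the tubulin Tuba4a (0.78 ± 0.20) rose by less, and both calls were lost in most fits with 1 mouse left out (adjusted p up to 0.106 without mouse 26 and 0.121 without mouse 253). Nefm averaged 2121 and 2962 RPKM at days 2 and 10 and did not pass (0.46 ± 0.15, adjusted p = 0.134). Nefh, Nefl and Tuba4a were 3 of 28 cytoskeletal genes tested (10.7%, against 3.38% of all genes tested). None of the 28 fell by limma (2 lower at an unadjusted p under 0.05). Of 24 genes for matrix and perineuronal nets, Hapln4, a link protein of nets around fast neurons, rose from 8.07 to 20.2 RPKM at day 2 to 49.6 to 70.4 at day 10 (2.25 ± 0.36, adjusted p = 0.00378). Timp3 fell (−1.21 ± 0.30), and lost its call in 10 of 12 fits with 1 mouse left out (adjusted p up to 0.112, without mouse 244). Hapln4 and Timp3 made up 8.33% of the matrix genes tested, against 3.38% of all genes tested. Of 23 calcium buffers and sensors, Calm3 and Vsnl1 rose (0.97 and 0.66) while Calb1 and Hpcal1 fell (−1.90 ± 0.32 and −0.995 ± 0.17). These made up 17.4% of that list, against 3.38% of all genes tested. Calb1, calbindin, was at 43.1 to 64.6 RPKM at day 2 and 10.7 to 16.6 at day 10. Calm3 lost its call without mouse 254 (adjusted p = 0.0536) and Vsnl1 in 4 fits (up to 0.0778, without mouse 240).

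Of 45 genes tested for growing axons and immature neurons, 11 fell and 1 rose (26.7%, against 3.38% of all genes tested). The median change was −0.52 against −0.03 for all genes. Falls numbered 7 without the day 2 mice 26 and 28, and 3 without mice 240 and 244. Gap43 (chr16:42248442-42340651), the growth cone protein, was at 1080, 1152, 1109 and 884 RPKM at day 2, at 931, 907, 776 and 829 at day 5 and at 430, 474, 439 and 291 at day 10. Its fall was −1.38 ± 0.16 (adjusted p = 0.000475). Dcx, doublecortin of migrating neurons, went from 12.4, 13.7, 10.9 and 18.2 RPKM through 4.95 to 9.09 to 1.43, 4.77, 3.17 and 1.34 (−2.09 ± 0.37, adjusted p = 0.00586). The tubulin Tubb2b (−1.46), the collapsin response proteins Crmp1 (−1.34) and Dpysl3 (−0.87), Marcks (−1.34), Marcksl1 (−1.19), the actin-binding Tmsb4x (−0.84), Nnat (−1.59), Nrep (−1.21) and Mllt11 (−0.57) were the other falls. Not every growth gene did so. Stmn2, a growth cone protein at 1346 RPKM at day 2, was at 1500 at day 10 (0.16 ± 0.12, adjusted p = 0.541), and Tuba1a averaged 1805 and 1508 (−0.27 ± 0.14, adjusted p = 0.365). Nrep and Mllt11 lost their calls without some mice (adjusted p up to 0.0817 and 0.0960, without mouse 254). Among 55 guidance and adhesion genes tested, 4 fell and none rose by limma (7.27%, against 3.38% of all genes tested). The median of that list was −0.40, and 1 gene was higher at an unadjusted p under 0.05. The falls were in the semaphorin receptor Plxnc1 (−1.53), the cadherin Cdh8 (−1.39), the midline repellent Slit2 (−1.17) and the ephrin receptor Epha5 (−1.05 ± 0.21, adjusted p = 0.0117). The first 3 lost the call in some fits with 1 mouse left out (adjusted p up to 0.104, 0.115 and 0.0791, without mouse 26), which left 1 fall without mouse 26, 244, 247 or 253. No guidance gene passed when either pair of day 2 mice was left out.

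**Figure D4:**
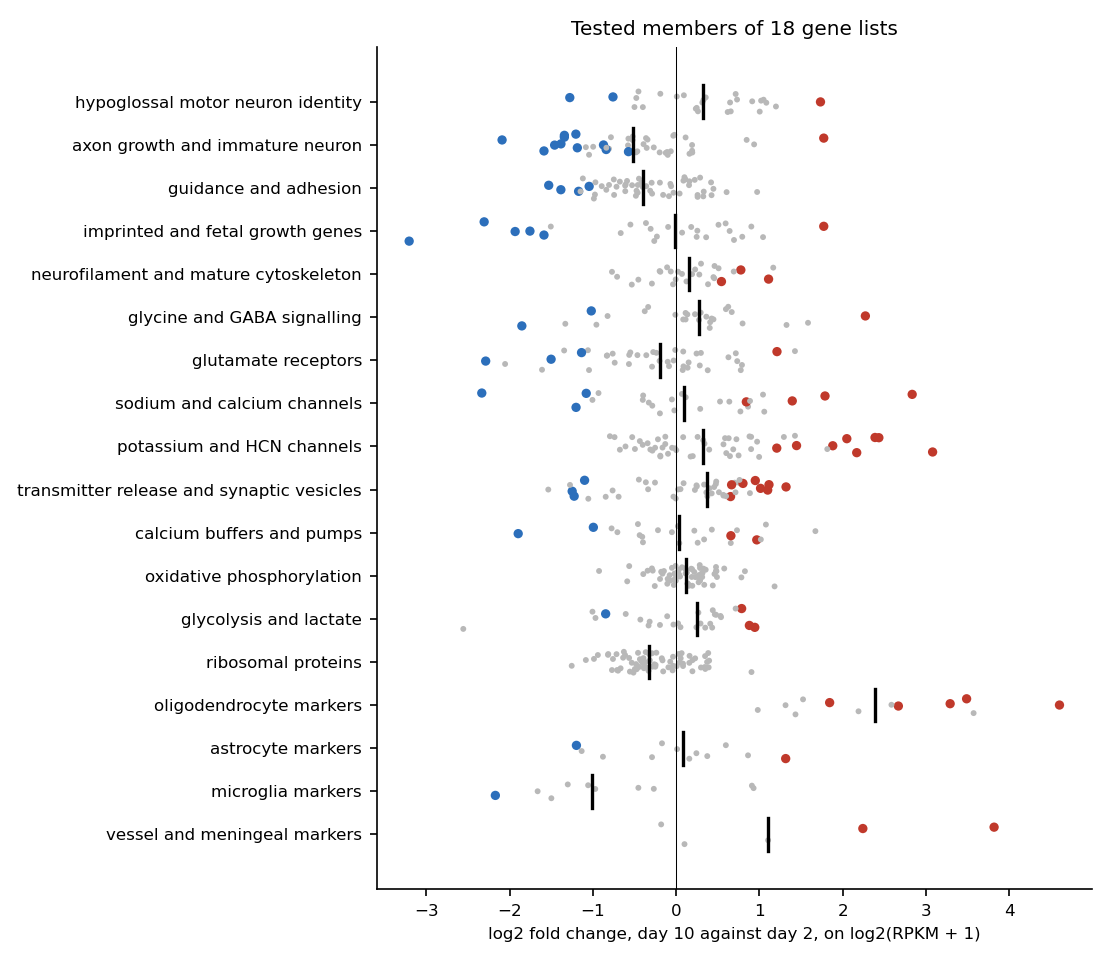
Change from day 2 to day 10 (x axis, log2(RPKM + 1)) of the tested members of 18 gene lists (y axis), with members that rose in red, members that fell in blue and a black bar at each list's median. Axon growth genes (median −0.52) lie mostly left of 0 and oligodendrocyte markers (median 2.39) right of it, while oxidative phosphorylation genes sit near 0 with none past the threshold.

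Among genes of energy metabolism, the RNA of a few glycolytic genes changed. Ldha and Ldhb code for the lactate dehydrogenase subunits that favour lactate and pyruvate as product, and they moved apart. Ldha was at 374, 371, 382 and 347 RPKM at day 2, at 267 to 324 at day 5 and at 194.95, 196.6, 221.1 and 206 at day 10 (−0.85 ± 0.13, adjusted p = 0.00289), with no overlap between ages. Ldhb was at 302 to 431 RPKM at day 2 and 599 to 682 at day 10 (0.79 ± 0.17, adjusted p = 0.0193). Eno2, the neuronal enolase, and Aldoa rose by 0.94 ± 0.14 and 0.88 ± 0.15. That made 3 higher and 1 lower of 28 glycolysis genes (14.3%, against 3.38% of all genes tested). None of 68 oxidative phosphorylation genes and none of 74 ribosomal protein genes passed by limma, and their medians were 0.12 and −0.33. At an unadjusted p under 0.05, 9 and 0 of them were higher and 3 and 9 lower. Ldhb lost the call in 2 of 12 fits with 1 mouse left out (adjusted p up to 0.0546, without mouse 28).

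Among 26 imprinted and fetal growth genes, 5 fell and 1 rose (23.1%, against 3.38% of all genes tested). Igf1, insulin-like growth factor 1, was at 8.34 to 11.0 RPKM at day 2, 5.17 to 9.39 at day 5 and 0.391, 0.860, 3.39 and 0.874 at day 10 (−2.31 ± 0.39, adjusted p = 0.00486). Peg12 (−1.94), Mycn (−1.76), Nnat and Cdkn1c were the other falls. Dlk1, a Notch ligand relative that is itself imprinted and is also among the axon growth genes, went the other way, from 12.8, 4.24, 4.54 and 4.30 RPKM to 12.7, 34.99, 23.2 and 23.2 (1.77 ± 0.39, adjusted p = 0.0214), with mouse 247 of day 10 inside the day 2 range. Of 44 regulators of neuronal maturation, the hormone-responsive factor Klf9 (2.21 ± 0.55) and the splicing factor Mbnl2 (0.83 ± 0.20) rose. Their share of 4.55% was close to the 3.38% of all genes tested. Such rises numbered 0 to 2 with 1 mouse left out, and 0 when either pair of day 2 mice was left out. Of 10 antigen presentation and interferon genes, B2m (−1.92 ± 0.34) and H2-K1 (−2.50 ± 0.56), the light and heavy chains of class I molecules, fell and Ifi27 rose (1.86 ± 0.29). These made up 30.0% of that list, against 3.38% of all genes tested. B2m was at 232.4 to 351 RPKM at day 2, 236 to 343 at day 5 and 30.7 to 147 at day 10. None of 12 immediate early genes passed by limma (1 higher and 2 lower at an unadjusted p under 0.05). Of 9 hypothalamic peptide genes, Trh and Gal fell (22.2%, against 3.38% of all genes tested). Gal, which hypoglossal neurons held in every mouse, was at 326 to 613 RPKM at day 2 and 145 to 213.5 at day 10 (−1.43 ± 0.21, adjusted p = 0.00283). Mycn, Dlk1, Klf9, Mbnl2 and H2-K1 lost the call without some mice, at adjusted p up to 0.115 (without mouse 240), 0.0650 (252), 0.106 (252), 0.110 (240) and 0.0685 (28).

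Markers of other cells moved with age too, and their part in the changes above was not tested. The 12 tested oligodendrocyte markers were all positive, with a median of 2.39, and 5 passed (41.7%, against 3.38% of all genes tested). Among those 5 were Mobp, Mag, Mbp and Cnp, and the count varied from 2 to 10 when 1 mouse was left out. The summed level of the oligodendrocyte markers was 43.1 to 121.1 RPKM at day 2, 86.97 to 176.5 at day 5, and 203.2, 582, 943 and 777 in mice 247, 252, 253 and 254 at day 10. The 14 listed vessel and meningeal markers summed to 56.4 to 92.1 RPKM at day 2 and 190 to 326 at day 10, and 5 of them were tested. Dcn (2.24 ± 0.35) and Lum, proteoglycans on that list, passed (40.0%, against 3.38% of all genes tested). Dcn averaged 44.1 RPKM at day 2 and 220 at day 10. The endothelial markers Cldn5 and Ly6c1 were tested and did not pass, with Cldn5 at averages of 1.13 and 0.762 RPKM. Pecam1, Flt1, Kdr, Cdh5, Tek, Slco1a4, Pdgfrb and the collagens Col1a1 and Col1a2 were too low to enter the test. Pecam1 was listed at 0 in all 4 day 10 mice. Col1a1 was at 0, 0.0284, 0.331 and 10.1 RPKM in mice 247, 252, 253 and 254 at day 10. Astrocyte markers summed to 1646 to 2166 RPKM at day 2 and 2204 to 2877 at day 10. That sum follows its most abundant members and does not show a rise shared by the list. Over the 12 astrocyte markers tested the median change was 0.0841, with 7 positive and 5 negative. Of these, S100b rose (1.32 ± 0.15, adjusted p = 0.000530) and Slc1a3 fell (−1.20 ± 0.31). The call of Slc1a3 was lost in 10 of 12 fits with 1 mouse left out (adjusted p up to 0.130 without mouse 244). The astrocyte filament Gfap averaged 3.63 and 5.01 RPKM at days 2 and 10. Microglia markers had a median of −1.02 over 10 tested, with C1qa listed at 0 in 3 of the 4 day 10 mice. Among dividing cell markers 1 of 8 fell (12.5%, against 3.38% of all genes tested). It was Ccna2 (−1.73 ± 0.44, lost in 10 of 12 fits with 1 mouse left out, adjusted p up to 0.118 without mouse 26). The inhibitory interneuron markers summed to 3.61 to 24.6 RPKM at day 2 and to 2.61, 44.9, 58.1 and 31.8 at day 10, lowest in mouse 247, with none of 4 past the threshold. No oligodendrocyte precursor (6 tested), blood (3) or excitatory interneuron (1) marker passed by limma. At an unadjusted p under 0.05, 1 of these precursor markers was higher, and none of the blood or interneuron markers reached it. Rows of ribosomal RNA, which as a rule has no polyA tail, rose as well. The row n-R5-8s1 was at 133 to 214.5 RPKM at day 2, 188.5 to 349 at day 5 and 1177, 1201, 474 and 1443 at day 10 (2.69 ± 0.30, adjusted p = 0.000401).

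The same comparison in SMA mice used 15 other animals. There 795 of 15138 genes passed (5.25%), 441 higher and 354 lower. Of the 476 control genes that were also tested, 446 had the same sign in SMA mice (93.7%, against 65.2% of 13826 genes tested in both), and none passed with the opposite sign. Genes that passed in both with the same sign made up 44.9% of the control genes and 26.9% of the SMA genes. The control changes had been selected for size, with medians of 1.45 for rises and −1.60 for falls, and the SMA medians of the same genes were 0.77 and −0.79. Glra1 averaged 17.2 RPKM in day 2 SMA mice (9.30 to 23.4) and 46.6 at day 10 (41.3 to 51.1), a rise of 1.46 (adjusted p = 0.00696). Kcna1 went from 11.0 to 42.5 RPKM (1.89, adjusted p = 7.58e-05) and Scn4b from 2.05 to 16.9 (2.56, adjusted p = 0.000140). Kcng4 was listed at 0 in all SMA mice at day 2 and stood at 3.71 to 15.2 at day 10. Gap43 fell from 1221 to 521 RPKM (−1.26, adjusted p = 0.00219) and Isl1 from 95.8 to 47.8 (−0.99, adjusted p = 0.0399). Chat averaged 16.9 and 26.6 RPKM in SMA mice, and its change did not pass there (0.61, adjusted p = 0.219). Whether the change of Chat differs between genotypes was not tested.

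Other motor populations of control mice were compared with the hypoglossal neurons by testing the difference of the age changes in a joint fit. Facial neurons, which move the face, had 880 of 16015 genes of their own past the threshold (5.49%). No gene differed from the hypoglossal change (0%, lowest adjusted p 0.228, 761 genes with an unadjusted p under 0.05), and 457 of the 477 hypoglossal genes had the same sign in facial neurons, with medians of 1.06 for those that rose and −1.02 for those that fell. The samples came largely from the same animals, and the 477 genes were chosen on their hypoglossal values. The share of all genes with the same sign was not worked out for the other populations. Counts of the same sign are thus given as a description. Without mice 240, 28 or 247 the count of differences was 2, 2 and 1. Vagus neurons, which are visceral motor neurons of the same level of the medulla, had 0.919% of 16650 genes past the threshold. That rests on 11 control samples, with 3 at day 2 (mice 240, 244 and 26), against 13 each for facial and lumbar neurons. The shares of the populations thus do not rest on equal numbers of mice. The hypoglossal genes had medians of 0.56 and −0.49 in vagus neurons and 389 had the same sign. Against vagus, 33 genes differed (0.198%), 10 with a higher and 23 with a lower hypoglossal change.

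Scn4b was among them, at 1.57, 0.369 and 0.557 RPKM in vagus neurons at days 2, 5 and 10, which gave a difference of 3.31 ± 0.60 in favour of hypoglossal neurons (adjusted p = 0.0170). Kcng4 stayed at or under 0.0519 RPKM on average in vagus neurons. It entered this fit too through the day 10 hypoglossal mice alone, so its difference (3.12 ± 0.42) had to be there and is given as a description. Crabp2 was at 251.2, 346 and 296 RPKM in vagus neurons while it fell in hypoglossal ones (−4.43 ± 0.84, adjusted p = 0.0226). Scn3b likewise averaged 108.9, 110 and 106.98 in vagus neurons (−2.28 ± 0.47, adjusted p = 0.0357). Crip1 averaged 115.4 and 205.3 RPKM in vagus neurons at days 2 and 10 (−4.46). Mbp, a marker of oligodendrocytes, averaged 25.9 and 22.3 there (2.85 ± 0.60). Gal, Hpcal1, Ldha, Syt1 and Calb1, which fell in hypoglossal neurons, also differed and were expressed in vagus neurons. Gal averaged 2681 and 3760 RPKM there at days 2 and 10 (−1.88 ± 0.32, adjusted p = 0.0115). Hpcal1 averaged 244.9 and 323.1 (−1.41 ± 0.22, adjusted p = 0.00724). Some other genes that differed were nearly absent from vagus neurons. Reg3b (−7.23 ± 1.14) averaged at most 2.47 RPKM in vagus neurons at any age and Fst (−4.10) at most 0.292, so they had little room to fall there. Amhr2 (4.43) averaged 2.20 at day 2 and was listed at 0 at day 10. Hhatl (4.30) and Lum (3.77 ± 0.46) averaged at most 0.0327 and 0.0371. Amhr2 and Lum would not have entered the fit without the day 10 hypoglossal mice, so they too had to differ. With the mouse as a replicate block, 2 genes differed, Lum and Anxa5. The calls of Scn4b (adjusted p = 0.0757), Kcng4 (0.0711), Crabp2 (0.0821), Scn3b (0.126), Reg3b (0.0694), Crip1 (0.0557), Fst (0.0694), Amhr2 (0.126), Hhatl (0.0557) and Mbp (0.107) were lost with it. The count was 9 without mouse 244, 11 without mouse 240 and 20 without mouse 252 or mouse 254.

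Lumbar spinal motor neurons, which move the hindlimb, had 1319 of 15965 genes past the threshold (8.26%). As a description, 452 of the 477 hypoglossal genes had the same sign there, with medians of 0.88 and −1.09. The age change differed in 46 genes (0.288%), 28 higher and 18 lower in hypoglossal neurons. Kcng4 stood at 0.641, 4.16 and 85.6 RPKM in lumbar neurons at the successive ages (difference −2.67 ± 0.51, adjusted p = 0.0195, and 0.182 with the mouse as a replicate block). Bex1, a small adaptor protein of neurotrophin signalling, averaged 153.4, 77.0 and 13.3 RPKM in lumbar neurons, while hypoglossal mice stood at 156.9 to 219.02 at day 2 and 96.6 to 116.99 at day 10 (3.01 ± 0.45, adjusted p = 0.00284). The neurotrophin receptor Ngfr (2.76 ± 0.52) and the growth protein Marcksl1 (1.46 ± 0.23) also fell further in lumbar neurons, and Ngfr was at 39.9 and 0.826 RPKM there. Plac8 averaged 1.13 RPKM in lumbar neurons at day 2 and was listed at 0 at day 10 (−3.97 ± 0.60, adjusted p = 0.00284), so it had little room to fall there. The same holds for Fst (−3.45), at 0.768 RPKM at day 2. The age change of the myosin Myh14 (−3.37) and of Cul2 (−2.68) was lower than in lumbar neurons, and that of Lum (3.66) and Efcab10 (5.06) higher. With the mouse as a replicate block 14 genes differed, 11 of them among the 46. The calls of Kcng4, Fst (adjusted p = 0.140), Myh14 (0.194) and Efcab10 (0.0865) were lost with it. The count was 10 without mouse 240 and 20 to 29 without mice 26, 28, 244, 247, 252 or 254. The 3 comparisons share the hypoglossal samples, so a gene that differs in several of them is not independent evidence.

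**Figure D5:**
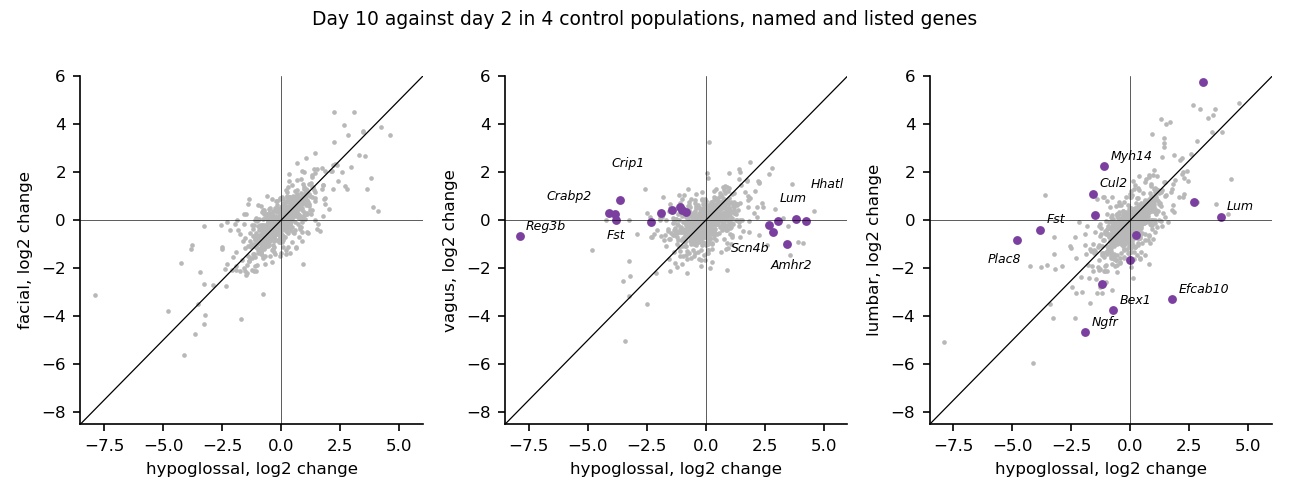
Change from day 2 to day 10 in hypoglossal neurons (x axis) against the change in facial, vagus and lumbar neurons (y axes of the 3 panels), log2(RPKM + 1), for the named and listed genes, with purple for genes whose difference passed an adjusted p of 0.05. No purple point appears against facial neurons, while Scn4b, Crabp2 and Reg3b are purple against vagus neurons and Bex1 and Kcng4 against lumbar neurons, in fits without the mouse as a block.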

How the data were processed

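RNA of laser-cut cells was measured by Smart-seq2 in 168 libraries from 34 mice. The authors deposited 1 table of RPKM with 39410 rows. The submitters' processing notes name STAR 2.4.1c and the builds mm10 and hg19. The read counter, annotation and use of strand are not given in the sources used here. Mapping of reads shared by paralogs, overlapping genes or the Smn1 and SMN2 rows is therefore uncertain. Where a mouse had several libraries of a population their mean was used, so each value stands for 1 mouse. Positions came from GENCODE M21 (GRCm38), by gene name, for 35283 rows (89.5%). Read depth was recovered from the step size of low RPKM values in genes with 1 transcript. In the 12 libraries 69.6% to 75.5% of such low genes lay within 0.01 of a whole read, and no counts were taken from the table.

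The tests used limma 3.58.1 (lmFit, eBayes with trend; R 4.3.3) on log2(RPKM + 1) and were two-sided, with p-values adjusted by Benjamini-Hochberg over all genes with RPKM of at least 1 in at least 4 of the 12 mice (3 samples in the vagus fit). The threshold was 0.05. The 3 control ages shared 1 fit, the SMA ages another, and differences between populations came from interaction terms in joint fits of 6 control groups. The p-values weigh each change against the spread between mice. The main fits of several populations took samples of the same mouse as independent. The method was tested on simulated data. The mice were chosen by label alone. The 31 gene lists (875 genes, 751 tested, 88 past the threshold) were written with earlier results of these data known. Named genes were the 12 largest rises and 12 largest falls without overlap and with a mean of at least 10 RPKM at the higher age, the list members, up to 5 genes each way by the same rule between successive ages, up to 4 genes each way that differed most from each other population, and Smn1 and SMN2. Anxa5 was named after its value was seen. Some genes that the rule or the lists hold are not reported here.

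Mouse numbers mark the same animal across populations, per the labels, so samples of different populations are paired by animal. Deviations of the same mouse correlated at −0.021 to 0.133 (facial), −0.013 to 0.101 (vagus) and −0.007 to 0.112 (lumbar). Alternatives were another pseudocount (0.1), other filters, quantile normalization, rescaling, other sets of groups in the fit, leaving out each mouse, splitting day 2 by library number, and the mouse as a block. Promoters were the RefSeq windows matched by symbol, for 331 of the 477 genes.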

Additional observations from a re-analysis of the deposited data

Results flagged for a closer look

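At each of the 3 ages, the 4 values of 42 genes or marker sums were checked for a mouse far from the other 3. In all, 16 sets of values stood out, where chance gives about 1 in 20 for values with an even spread. Where the other 3 mice were at 0, any value above 0 stands out, so that rate does not hold there. Amhr2 and Lum at day 2 and Ccl7, Plac8 and Reg3a at day 10 were of this kind. At day 2, mouse 26 was high for Amhr2 (0.205 RPKM, others 0), Apod (2.34) and Lum (0.0603), and low for Gm8773 (3.92) and for summed blood markers (25.4). Mouse 244 was high for Ccl7 (23.1) and low for Cul2 (34.7), and mouse 28 was low for Hist1h1c (2.24) and high for n-R5-8s1 (214.5). At day 5, mouse 71 was high for Amhr2 (6.49) and low for summed excitatory interneuron markers (12.4). At day 10, mouse 252 was high for Ccl7 (1.05) and low for summed astrocyte markers (2204), and mouse 253 was high for Plac8 (1.01) and Reg3a (2.35) and low for summed vessel and meningeal markers (190).

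The age change differed from that of vagus neurons, by limma's interaction term, in Reg3b (−7.23 log2), Crip1 (−4.46), Crabp2 (−4.43), Fst (−4.10), Scn4b (3.31), Lum (3.77), Hhatl (4.30) and Amhr2 (4.43). It differed from that of lumbar neurons in Plac8 (−3.97), Fst (−3.45), Myh14 (−3.37), Cul2 (−2.68), Ngfr (2.76), Bex1 (3.01), Lum (3.66) and Efcab10 (5.06). Negative values mean a lower change in hypoglossal neurons. With the mouse as a block, Lum alone of the first 8 kept its call, and Fst, Myh14 and Efcab10 of the second 8 lost theirs.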

How the results depend on the processing

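Between days 2 and 10, 477 genes passed, and the count was 300 without the filter on low values, 842 with the SMA groups in the fit, 146 with only the day 2 mice of library numbers above 200 and 150 with only those under 100. Leaving out 1 mouse gave 261 to 522. Between days 5 and 10 (93 genes higher and 98 lower, 1.35% of those tested) the share was 0.402% without the filter, 2.73% with the SMA groups and 0.748% with only those ages, and 0.202% to 1.43% with 1 mouse left out. Between days 2 and 5 (0 genes) it was 2 with the SMA groups, 1 with day 2 library numbers above 200, and 0 to 2 with 1 mouse left out (1 without mouse 26 or 71, 2 without mouse 28). The 88 listed genes became 38 and 36 with library numbers above 200 and under 100, and 57 (without mouse 254) to 94 with 1 mouse left out. The differences from facial (0), vagus (33) and lumbar (46) neurons became 0 to 2, 9 to 37 and 10 to 33 with 1 mouse left out. With the mouse as a replicate block they were 0, 2 and 14. The SMA count (795) ran from 539 to 899 with 1 mouse left out. The cause of these shifts was not tested. Of the named or listed genes past the threshold, 65 kept the call in all 12 fits with 1 mouse left out, 43 and 48 with the day 2 mice of library numbers above 200 or under 100, and 30 under every alternative. Kcng4 entered 8 of the 12 fits and kept its call in them. None changed direction. Depth limits low genes, since a value under 1 RPKM rests on few reads.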

Other observations

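Rows outside the lists moved between days 5 and 10 without a matching step before. Hist1h1c, a linker histone, was at 2.24 to 3.62 RPKM at day 2, 0.705 to 4.99 at day 5 and 15.1 to 21.7 at day 10 (day 10 against day 2, 2.10 ± 0.38, adjusted p = 0.00766, limma). Gys1, the glycogen synthase of muscle and brain, was at 18.1 to 43.9 RPKM at day 2, 12.6 to 25.2 at day 5 and 131, 46.8, 65.4 and 130 at day 10. Its call against day 2 (1.44 ± 0.37, adjusted p = 0.0493) was lost in 11 of 12 fits with 1 mouse left out, with an adjusted p up to 0.142 without mouse 254. Cul2, a ubiquitin ligase scaffold, was at 34.7 to 85.6 RPKM at day 2, 45.5 to 106.6 at day 5 and 14.2 to 27.9 at day 10 (−1.57 ± 0.36, adjusted p = 0.0267), and lost its call in 6 of 12 such fits (up to 0.0776, without mouse 26).

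Of the 477 genes, 452 had a position, 12 of them on the X chromosome and none on the Y. Only 2 of the 477 were at 1 RPKM or more in day 10 mice and in no younger mouse.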
